A study of Mus musculus with 6 samples.

Results

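Transcripts of the voltage-gated sodium, voltage-gated calcium and HCN channel families were compared between the dorsal striatum of Ash1l heterozygous (Ash1l het) mice and that of wild type (WT) mice. The members are the 35 of 34745 genes in the deposited table whose symbol follows the naming pattern of a sodium channel alpha or beta subunit (Scn), a calcium channel alpha1 (Cacna1), alpha2delta (Cacna2d) or beta (Cacnb) subunit, or an HCN channel (Hcn). They comprise 9 sodium channel alpha, 4 sodium channel beta, 10 alpha1, 4 alpha2delta, 4 calcium channel beta and 4 HCN genes. The brain sodium channel gene Scn2a is listed under its older symbol, Scn2a1, and so is no member; its values are given beside the sodium channels. The series holds 3 libraries from Ash1l het and 3 from WT mice, all of strain C57BL/6 and aged 1 year, with no treatment named. The sources used here do not give the position or kind of the Ash1l allele, or the cells in which it acts.

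Voltage-gated sodium channels carry the rising phase of the action potential. Their pore is a single alpha subunit, and beta subunits tune its gating and its place in the membrane. Voltage-gated calcium channels turn depolarisation into calcium entry for transmitter release, gene regulation and pacemaking. Their alpha1 subunit forms the pore, the alpha2delta subunit aids delivery to the surface and the presynapse, and the intracellular beta subunit aids folding and trafficking. HCN channels open on hyperpolarisation, bind cyclic nucleotides and carry a pacemaker current, known in the striatum from the spontaneous firing of cholinergic interneurons.

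The targeted gene served as a check of the labels. Ash1l, which encodes a histone methyltransferase, stood at 308, 295 and 293 CPM in WT libraries and at 281, 198 and 253 CPM in Ash1l het libraries, where CPM are counts scaled to library size with TMM factors. The groups did not overlap, which also held for 11.7% of all tested genes, and the log2 fold change of Ash1l was -0.29 (SE 0.13). The edgeR quasi-likelihood adjusted p was 0.858, and p was 0.1 by exact permutation (two-sided), which is as low as 3 libraries a group can go. Library totals ran from 12080663 to 18798694 counts, and the 35 channel genes took 0.512% to 0.614% of them. Males are named in the labels' protocol. Xist nevertheless stood between 1956 and 2957 CPM in all 6 libraries, and 1 count in all fell on the Y chromosome genes Eif2s3y, Kdm5d, Uty and Ddx3y. The 8 spiny projection neuron markers examined, among them Ppp1r1b, Drd1 and Adora2a, summed to 4934, 5534 and 6399 CPM in Ash1l het. In WT they summed to 5842 to 6668 CPM. By sign 8 of 8 were lower, beside 48.6% of all tested genes. Their median log2 fold change was -0.20, from -0.42 for Adora2a to -0.00026 for Penk, which was thus unchanged. The 3 reactive astrocyte genes Gfap, Serpina3n and Vim summed to 478, 844 and 143 CPM in Ash1l het and to 86.02 to 180.5 CPM in WT, and the 5 blood genes to 56.1 to 123 CPM in Ash1l het and 22.99 to 35.4 CPM in WT. Genes of cortical and other glutamatergic neurons (5 listed) summed to 82.1, 13.1 and 46.6 CPM in Ash1l het. In WT they summed to 30.1 to 56.6 CPM, so Ash1l het replicate 2 was the lowest library. No gene of these lists was at 0 in all libraries. Their part in the channel results was not tested, and in bulk tissue fewer cells of a type and less RNA per cell cannot be told apart.

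Levels between genes are given as FPKM, the authors' value per kilobase of gene length, scaled to the library total. In WT, 13 members stood at or above 10 FPKM, 12 between 1 and 10, and 10 below 1. Of the 34 pairs of neighbours in the WT order, 21 had overlapping WT ranges, so the order is clear only in part. Among the 9 highest members were Scn4b, Cacna2d3, Scn2b, Cacnb3, Hcn2, Cacnb1, Cacnb4 and Cacna1e. Most of these are auxiliary subunits, and Cacna1e is the one pore-forming calcium channel gene among them.

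**Figure D1:**
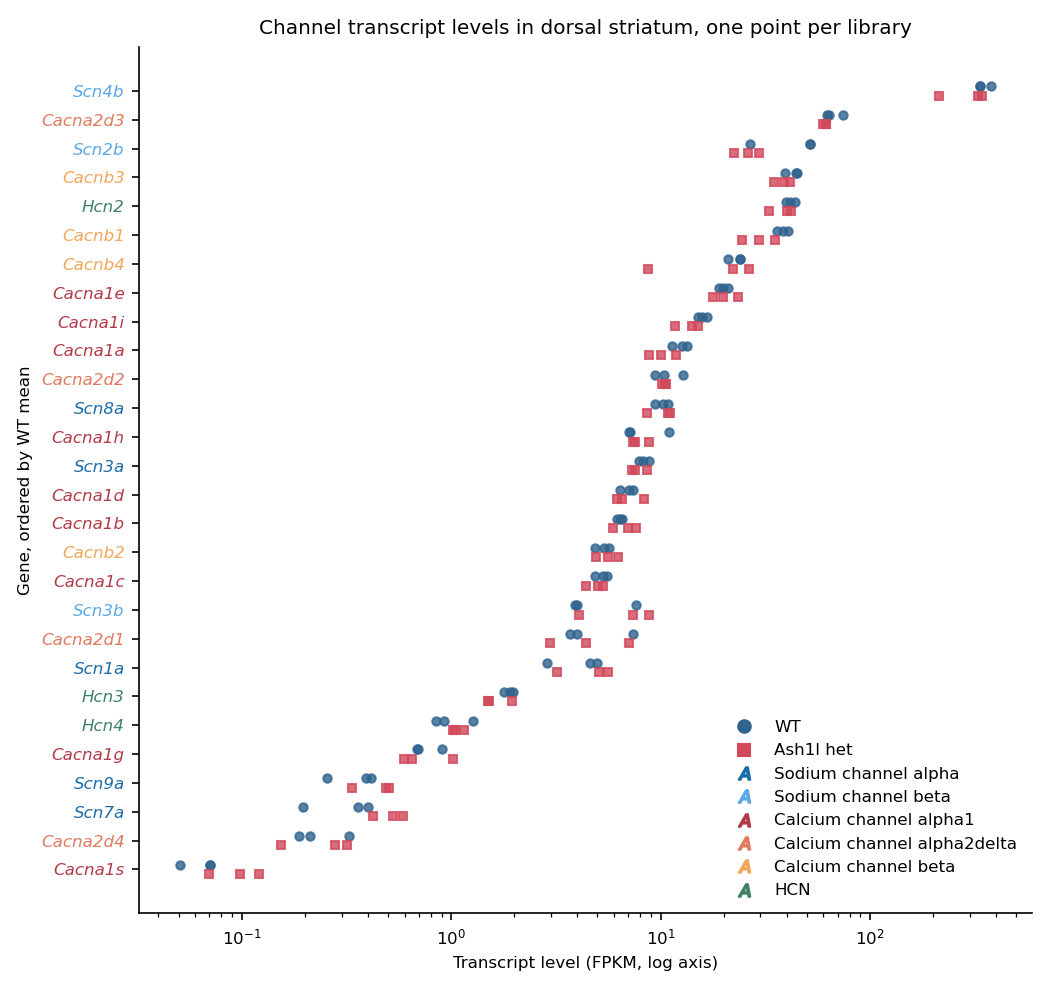
Transcript level of 28 members that passed the expression filter, on a logarithmic FPKM axis; each circle is a WT library and each square an Ash1l het library, genes are ordered by WT mean, and the colour of a name gives its subunit class. Scn4b lies alone at the top (349.7 FPKM in WT), and one Ash1l het library of Cacnb4 (8.76 FPKM) lies apart from the other 5.

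Among sodium channel beta subunits, Scn4b, whose product can block the open pore and give resurgent current, was the highest of all members. It stood at 334, 335 and 380.3 FPKM in the WT libraries, a mean of 349.7 ± 26.4 FPKM (SD, n = 3). Scn2b stood at 43.3 ± 14.5 FPKM and Scn3b at 5.19 ± 2.15 FPKM. The WT ranges of these 3 beta genes did not overlap one another. Scn4b made up 71.7% ± 1.76 of the summed beta FPKM in WT. Scn2b and Scn4b are neighbours on chromosome 9, with 8.37 kb between the end of Scn2b and the start of Scn4b, both on the plus strand.

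The sodium channel alpha genes were led by Scn8a, Scn3a and Scn1a. Scn8a, the main sodium channel gene of axon initial segments in adult neurons, stood at 10.2 ± 0.707 FPKM in WT (SD, n = 3). Scn3a, best known from the embryonic brain, stood at 8.30 ± 0.431 FPKM and Scn1a, the gene of Dravet syndrome and a main sodium channel gene of fast-spiking interneurons, at 4.15 ± 1.13 FPKM. The WT ranges of these 3 genes did not overlap, and the genes held 43.2% ± 4.26, 35.2% ± 0.278 and 17.5% ± 4.34 of the summed alpha FPKM. Scn2a1, outside the naming pattern, stood at 19.8 ± 2.87 FPKM in WT, above every alpha gene among the members. With it included it would hold 45.4% of the alpha sum and Scn8a 23.7%.

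Levels differed widely among the members in the sodium channel gene cluster of chromosome 2 (GRCm38), all of which lie on the minus strand. Scn3a (65457118 to 65567627) and Scn1a (66270778 to 66440840) are the genes just described. Scn9a (66480080 to 66634962), a gene of peripheral pain-sensing neurons, and Scn7a (66673425 to 66784914), which encodes a sodium-sensing channel, lay at 0.354 ± 0.0847 FPKM and 0.319 ± 0.108 FPKM in WT, and these 2 overlapped in range. On chromosome 9, Scn10a and Scn11a, both genes of peripheral sensory neurons, had at most 23 counts over all 6 libraries. Scn10a had 7, 4 and 3 counts in the WT libraries and 5, 4 and 0 in Ash1l het. Scn11a had 1, 5 and 1 counts in WT and 4, 1 and 2 in Ash1l het, and the skeletal muscle gene Scn4a had 0, 1 and 0 in WT and 0, 1 and 1 in Ash1l het.

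Of the pore-forming calcium channel genes, Cacna1e, which encodes the R-type channel, was the highest in WT at 19.96 ± 0.927 FPKM (SD, n = 3). Cacna1i, a T-type gene, followed at 15.9 ± 0.760 FPKM, Cacna1a, the P/Q-type gene of presynaptic terminals, at 12.5 ± 1.05 FPKM and Cacna1h, also T-type, at 8.38 ± 2.20 FPKM. The WT ranges of these 4 genes did not overlap. They held 26.2% ± 1.42, 20.9% ± 1.15, 16.4% ± 1.29 and 10.99% ± 2.74 of the summed alpha1 FPKM in WT. The L-type gene Cacna1d stood at 6.95 ± 0.479 FPKM, the N-type gene Cacna1b at 6.37 ± 0.166 FPKM and the L-type gene Cacna1c at 5.24 ± 0.345 FPKM. Cacna1d overlapped in range with both Cacna1h and Cacna1b, whereas Cacna1b lay above Cacna1c in every WT library by FPKM. The remaining T-type gene, Cacna1g, known from thalamic relay neurons, was at 0.762 ± 0.123 FPKM, and the skeletal muscle gene Cacna1s at 0.0639 ± 0.0114 FPKM. The retinal gene Cacna1f had 2, 5 and 0 counts in the WT libraries and 0, 0 and 0 in Ash1l het.

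Auxiliary calcium channel subunits were each led by one or a few genes. Cacna2d3 stood at 66.8 ± 6.65 FPKM in WT (SD, n = 3) and took 80.5% ± 4.73 of the alpha2delta sum. Cacna2d2 stood at 10.9 ± 1.75 FPKM with a share of 13.2% ± 2.38, Cacna2d1, which encodes a binding site of gabapentin, at 5.04 ± 2.05 FPKM and the retinal subunit gene Cacna2d4 at 0.242 ± 0.0744 FPKM. The WT ranges of the 4 alpha2delta genes did not overlap. Cacnb3 (42.95 ± 3.02 FPKM) and Cacnb1 (38.3 ± 2.23 FPKM) were the highest calcium channel beta genes and overlapped in range, with 39.2% ± 2.52 and 34.96% ± 0.997 of the sum. Cacnb4, the gene mutated in lethargic mice, followed at 22.96 ± 1.65 FPKM and Cacnb2 at 5.30 ± 0.397 FPKM.

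HCN transcripts were mostly Hcn2. It stood at 41.7 ± 2.15 FPKM in WT (SD, n = 3) and took 84.7% ± 1.44 of the HCN sum. Hcn3 stood at 1.89 ± 0.104 FPKM and Hcn4, the sinoatrial pacemaker gene, at 1.02 ± 0.226 FPKM. The WT ranges of these 3 HCN genes did not overlap. Hcn3 (chromosome 3, 89146074 to 89160196, minus strand) lies 66.7 kb past the end of Ash1l.

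The order of levels rests on the length behind FPKM. That length equalled the exon union of the GENCODE vM21 annotation of the same build for 1 of the 35 members, and reached 6.28 times the longest coding transcript there, for Cacnb2. With the longest coding transcript in its place, a setting chosen after seeing the data, the 9 highest members were the same 9 genes, with Scn4b first. Cacnb2 moved from rank 18 to rank 10 and Cacna1d from rank 16 to rank 22. On that scale Cacna1a (22.6) stood above Cacna1i (19.05) and Cacna1c (12.9) above Cacna1b (11.5), the reverse of their FPKM order. Cacnb1 (71.01) then stood above Cacnb3 (49.01), and their class shares were 35.7% and 24.7%. Other shares moved too: Cacna2d3 then held 65.8% of its class, Scn3a 26.9% and Scn8a 48.9%.

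Start-site sequences are shown because their CpG content differed among members. RefSeq windows of 300 bases on GRCm38.p6, from 250 before to 50 after an annotated start, were found for 25 of the 35 members, 34 windows in all. The measure is the CpG count over that predicted from the C and G content of the window. Of 18 matched members at 1 FPKM or more in WT, 15 had a window with a ratio of at least 0.6, and of 7 members under 1 FPKM, 0 had one; the 7 members with several windows were all in the first group. Among members with a single window, 8 of 11 at 1 FPKM or more had such a ratio. Counted by window, 16 of 34 member windows reached it, beside 35.8% of all 32851 windows. The exceptions among expressed members were Scn2b (0.200), Scn1a (0.305) and Cacna1e (0.482). The 4 windows printed run 5′ to 3′ on the gene's strand, with every CpG in capitals. Scn4b (chr9:45138374-45138673, plus strand) is the highest member and has 26 CpGs, and its neighbour Scn2b (chr9:45117626-45117925, plus strand) has 2. Hcn2 (chr10:79716384-79716683, plus strand) is the leading HCN gene, with 26 CpGs, and Scn10a (chr9:119718983-119719282, minus strand), hardly detected, has 11.
Scn4b: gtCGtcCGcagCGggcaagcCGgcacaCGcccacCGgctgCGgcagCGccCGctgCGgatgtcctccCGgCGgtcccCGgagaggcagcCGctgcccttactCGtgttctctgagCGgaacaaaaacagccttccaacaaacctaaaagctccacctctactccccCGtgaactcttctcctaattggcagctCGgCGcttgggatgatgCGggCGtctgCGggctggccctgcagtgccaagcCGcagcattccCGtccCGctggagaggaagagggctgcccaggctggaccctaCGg
Scn2b: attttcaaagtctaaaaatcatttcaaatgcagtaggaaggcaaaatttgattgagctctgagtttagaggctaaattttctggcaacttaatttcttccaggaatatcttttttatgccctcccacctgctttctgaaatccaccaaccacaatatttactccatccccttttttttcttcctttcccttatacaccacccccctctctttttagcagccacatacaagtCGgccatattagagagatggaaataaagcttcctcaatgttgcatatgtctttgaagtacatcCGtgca
Hcn2: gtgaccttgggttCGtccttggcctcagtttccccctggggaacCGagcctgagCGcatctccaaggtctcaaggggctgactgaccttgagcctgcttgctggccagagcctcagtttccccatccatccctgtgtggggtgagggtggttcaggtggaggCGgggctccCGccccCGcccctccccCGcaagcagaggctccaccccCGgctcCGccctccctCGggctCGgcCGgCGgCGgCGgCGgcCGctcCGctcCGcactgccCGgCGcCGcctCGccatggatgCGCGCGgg
Scn10a: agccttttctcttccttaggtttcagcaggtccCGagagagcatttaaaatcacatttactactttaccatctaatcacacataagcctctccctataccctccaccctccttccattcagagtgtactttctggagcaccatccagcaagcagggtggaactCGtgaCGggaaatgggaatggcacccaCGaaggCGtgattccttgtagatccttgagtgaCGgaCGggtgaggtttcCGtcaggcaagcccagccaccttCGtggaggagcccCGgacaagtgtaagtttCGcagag
In these windows most CpGs of Hcn2 lie toward the 3′ end, next to the start site, whereas those of Scn4b run along the whole window. A GC box (GGGCGG on either strand) was found in 16 of the 34 member windows and in 35.7% of all windows. A TATA box (TATAAA on either strand) was found in 1 member window, that of a Cacna1d start, and in 13.6% of all windows. The cyclic AMP element TGACGTCA and the E box CACGTG, each its own reverse complement, were found in 0 of the 34 member windows and in 1.79% and 7.15% of all windows.

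**Figure D2:**
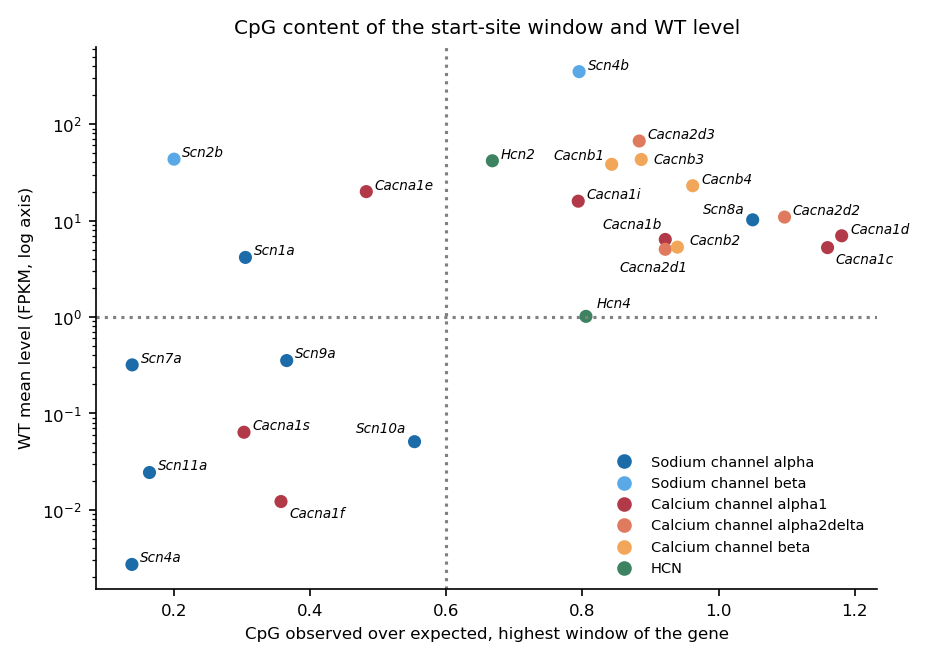
CpG observed over expected in the start-site window (the highest window for genes with several) against the WT mean in FPKM on a logarithmic axis, for the 25 members with a window; colours give the subunit class, and dotted lines mark a ratio of 0.6 and a level of 1 FPKM. No member under 1 FPKM reaches a ratio of 0.6, the highest being Scn10a at 0.553.

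The comparison of genotypes asked which channel transcripts differ between Ash1l het and WT striatum. Of the 35 members, 31 passed the expression filter, and 0 were called by the edgeR quasi-likelihood test at an adjusted p under 0.05; over all tested genes 0.0131% were called. The smallest adjusted p of a member was 0.825. At an unadjusted p under 0.05 there were 2 members, Scn2b and Cacnb1, which is 6.45% of those tested, beside 5.78% of all genes; both were lower, and 2.67% of all genes passed in that direction. DESeq2, the exact test of edgeR and limma-voom also called 0 members, where they called 0.182%, 0.255% and 0.0131% of all genes. In CPM the groups overlapped for every tested member, while 11.7% of all tested genes had groups that did not overlap. In FPKM, which is scaled by the library total alone, 3 members did not overlap (9.68%, beside 12.1% of all genes). Of these, Cacnb1 and Cacna2d3 were lower (as were 4.73% of all genes, without overlap) and Scn7a was higher in each Ash1l het library.

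By sign, 23 of the 31 tested members were lower in Ash1l het (74.2%, beside 48.6% of all tested genes). The median log2 fold change of the members was -0.099, and that of all tested genes 0.0063. The members' median deviation from the WT mean (log2) was -0.21 in Ash1l het replicate 2, the lowest of the 6 libraries, and -0.019 and -0.034 in Ash1l het replicates 1 and 3, within the WT range of -0.085 to 0.058. The 95% interval of the fold change lay within 1.5-fold either way for 15 of the tested members and within 2-fold for 24.

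**Figure D3:**
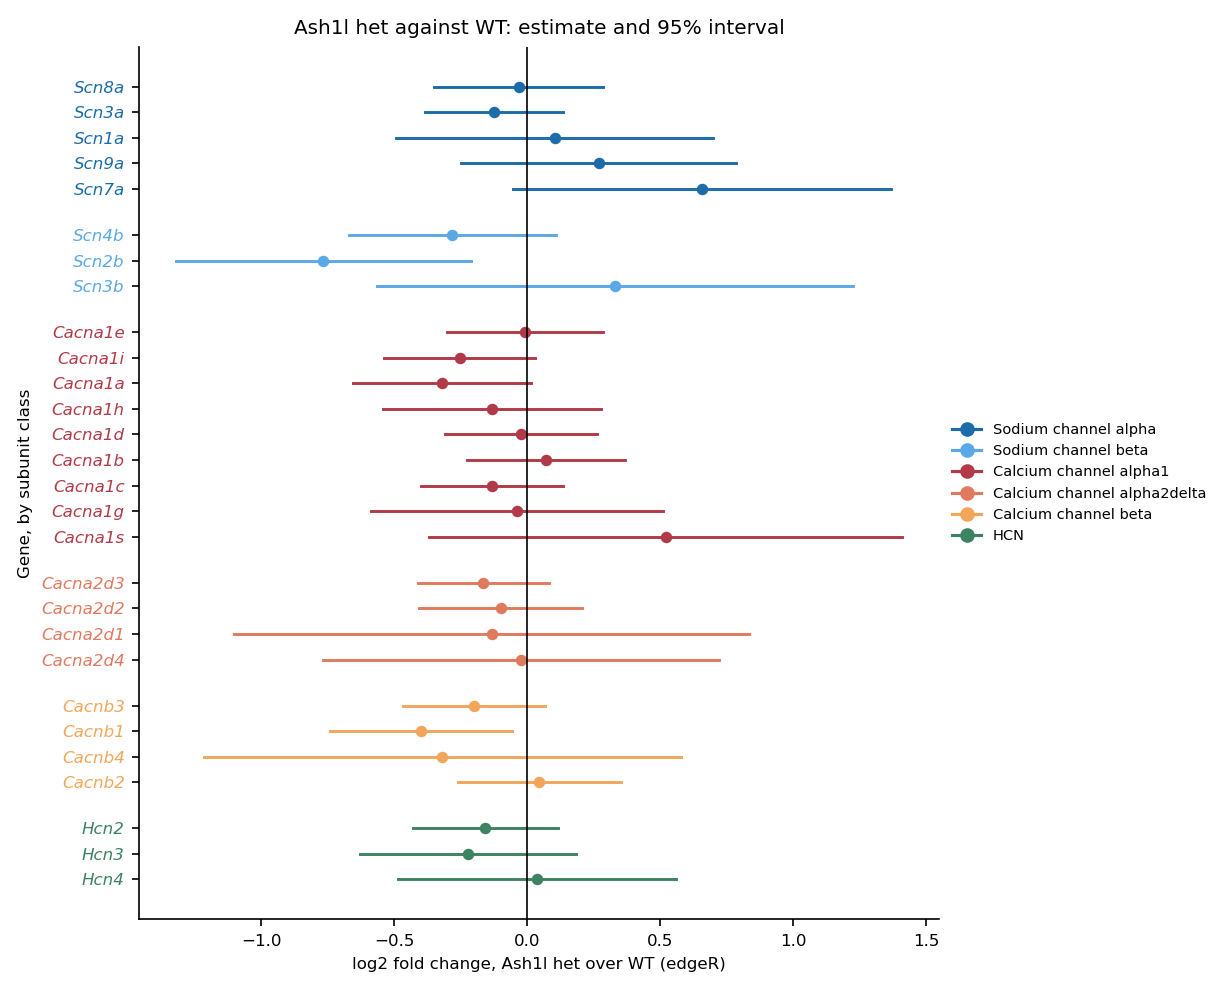
log2 fold change of Ash1l het over WT for 28 tested members, by subunit class; points are the edgeR estimates from 3 libraries per group and bars their 95% intervals. The intervals of Scn2b and Cacnb1 lie wholly below 0 and all others cross it, and those of Cacna2d1, Scn3b and Cacnb4 are the widest.

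Scn2b, whose product links to the alpha subunit by a disulphide bond, had the smallest p of the members. It stood at 419, 225 and 424 CPM in WT libraries and at 182, 227 and 219 CPM in Ash1l het libraries. WT replicate 2 lay among the Ash1l het libraries, and the other WT libraries stood far above them. The log2 fold change was -0.77 (SE 0.24, 95% interval -1.32 to -0.21, unadjusted p = 0.0131), and the edgeR adjusted p was 0.825.

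Scn4b stood at 1650.4, 1719 and 1889 CPM in WT libraries and at 1052, 1599 and 1676 CPM in Ash1l het libraries. Ash1l het replicate 1 was low, replicate 2 was just below the WT range and replicate 3 within it. The log2 fold change was -0.28 (SE 0.17, 95% interval -0.67 to 0.11), with an edgeR adjusted p of 0.889; without Ash1l het replicate 1 it was -0.099. The sum of the spiny projection neuron markers given above was also lowest in Ash1l het replicate 1, though not every single marker was lowest there.

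Scn3b showed a pair of levels that cut across genotype. It stood at 61.2, 62.6 and 119 CPM in WT libraries and at 134, 107 and 64.8 CPM in Ash1l het libraries. WT replicates 1 and 2 and Ash1l het replicate 3 thus stood apart from the other 3 by a step of 1.64-fold. Its log2 fold change, 0.33 (SE 0.37), was smaller than its own error, and it ran from 0.081 without Ash1l het replicate 1 to 0.71 without WT replicate 3.

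Sodium channel alpha genes overlapped between genotypes. Scn8a stood at 333, 328 and 292 CPM in WT libraries and at 338, 248 and 345 CPM in Ash1l het libraries, with a log2 fold change of -0.032 (95% interval -0.35 to 0.28). Scn3a stood at 137, 158 and 143 CPM in WT libraries and at 149, 119 and 135 CPM in Ash1l het libraries, with a log2 fold change of -0.12 (95% interval -0.38 to 0.14). For both genes the interval excludes a 1.5-fold difference in either direction. Scn1a stood at 70.2, 118 and 123 CPM in WT libraries and at 124, 129 and 81.1 CPM in Ash1l het libraries. WT replicate 1 and Ash1l het replicate 3 were the low libraries of Scn1a, and its interval of -0.49 to 0.70 (log2) is too wide to exclude 1.5-fold. Scn2a1 stood at 267, 370.3 and 335 CPM in WT libraries and at 353, 239.7 and 309 CPM in Ash1l het libraries, with overlapping groups and a log2 fold change of -0.11 (SE 0.17). The low member Scn7a stood at 2.65, 3.05 and 1.45 CPM in WT libraries and at 4.28, 2.93 and 4.01 CPM in Ash1l het libraries (log2 fold change 0.66, SE 0.32, edgeR adjusted p = 0.859); without WT replicate 3, which had 25 counts, it was 0.39. The value was 0.27 (SE 0.23) for Scn9a.

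Of the 9 tested alpha1 genes, 7 were lower by sign, with a median log2 fold change of -0.038. Cacna1e stood at 696, 659 and 662 CPM in WT libraries and at 768, 558 and 679 CPM in Ash1l het libraries, so the highest and the lowest library were both Ash1l het (log2 fold change -0.009, 95% interval -0.30 to 0.28). Cacna1i stood at 178, 193 and 197 CPM in WT libraries and at 136, 156 and 184 CPM in Ash1l het libraries (log2 fold change -0.25, SE 0.13, edgeR adjusted p = 0.875). Ash1l het replicates 1 and 2 of Cacna1i lay below the WT range and replicate 3 within it. Cacna1a stood at 192, 189.8 and 164 CPM in WT libraries and at 143, 119 and 176 CPM in Ash1l het libraries (log2 fold change -0.32, SE 0.15, edgeR adjusted p = 0.858). Replicate 3 was again the one inside the WT range, and the value of Cacna1a was -0.19 without replicate 2 and -0.48 without replicate 3. Cacna1h stood at 115, 182 and 114 CPM in WT libraries and at 119.9, 132 and 123 CPM in Ash1l het libraries (log2 fold change -0.13, SE 0.18); WT replicate 2 stood above all others. The log2 fold changes were -0.13 (SE 0.12) for Cacna1c, -0.024 (SE 0.13) for Cacna1d, 0.071 (SE 0.13) for Cacna1b, -0.038 (SE 0.24) for Cacna1g and 0.52 (SE 0.39) for Cacna1s.

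No calcium channel beta gene passed the test, and the genes were also summed as a description. Their summed FPKM was 108, 115 and 106 in the WT libraries and 91.5, 95.2 and 91.8 in Ash1l het. The highest Ash1l het library lay below the lowest WT library, with a difference of -0.24 on the log2 scale. Of the 6 class sums, 3 did not overlap in FPKM, each lower in Ash1l het. Among all single genes 12.1% did not overlap, 4.73% being lower. These shares are no measure for the sums, because a sum averages over several genes. Different genes were low in different libraries. Cacnb1 stood at 242, 264 and 228 CPM in WT libraries and at 153, 174 and 229.6 CPM in Ash1l het libraries, low in replicates 1 and 2 (log2 fold change -0.40, SE 0.15, unadjusted p = 0.0268, edgeR adjusted p = 0.857). Cacnb3 stood at 123, 146 and 139 CPM in WT libraries and at 108, 113 and 134 CPM in Ash1l het libraries (log2 fold change -0.20, SE 0.12), with the same 2 libraries below the WT range. Cacnb4 was low in Ash1l het replicate 3: it stood at 388, 403 and 344 CPM in WT libraries and at 425, 338 and 147 CPM in Ash1l het libraries. Its log2 fold change was -0.32 (SE 0.37), and without Ash1l het replicate 3 it was 0.0097. Cacnb2 had a value of 0.046 (SE 0.14).

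The 4 alpha2delta genes were all lower by sign, by small amounts. Cacna2d3 stood at 235, 239.7 and 277 CPM in WT libraries and at 226, 208 and 235 CPM in Ash1l het libraries (log2 fold change -0.16, SE 0.11, edgeR adjusted p = 0.890). The highest Ash1l het library of Cacna2d3 lay just above the lowest WT library. Cacna2d2 stood at 118, 152 and 108 CPM in WT libraries and at 115, 113 and 125 CPM in Ash1l het libraries (log2 fold change -0.099, SE 0.14). Cacna2d1 stood at 76.99, 148 and 71.8 CPM in WT libraries and at 83.6, 128 and 58.7 CPM in Ash1l het libraries, so replicate 2 of each genotype was high and the rest low. Its log2 fold change was -0.13 (SE 0.39), and that of Cacna2d4 -0.022 (SE 0.33).

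HCN genes overlapped between genotypes. Hcn2 stood at 179.9, 179 and 192 CPM in WT libraries and at 141, 165 and 187 CPM in Ash1l het libraries, which gave a log2 ratio of -0.16 (SE 0.12, 95% interval -0.43 to 0.11). Ash1l het replicates 1 and 2 lay below the WT range of Hcn2 and replicate 3 within it; the value was -0.060 without replicate 1 and -0.26 without replicate 3. Hcn3, close to Ash1l on chromosome 3, stood at 9.85, 11.4 and 10.7 CPM in WT libraries and at 8.23, 7.88 and 11.2 CPM in Ash1l het libraries (log2 fold change -0.22, SE 0.18, edgeR adjusted p = 0.897). Hcn4 had a log2 fold change of 0.038 (SE 0.23).

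**Figure D4:**
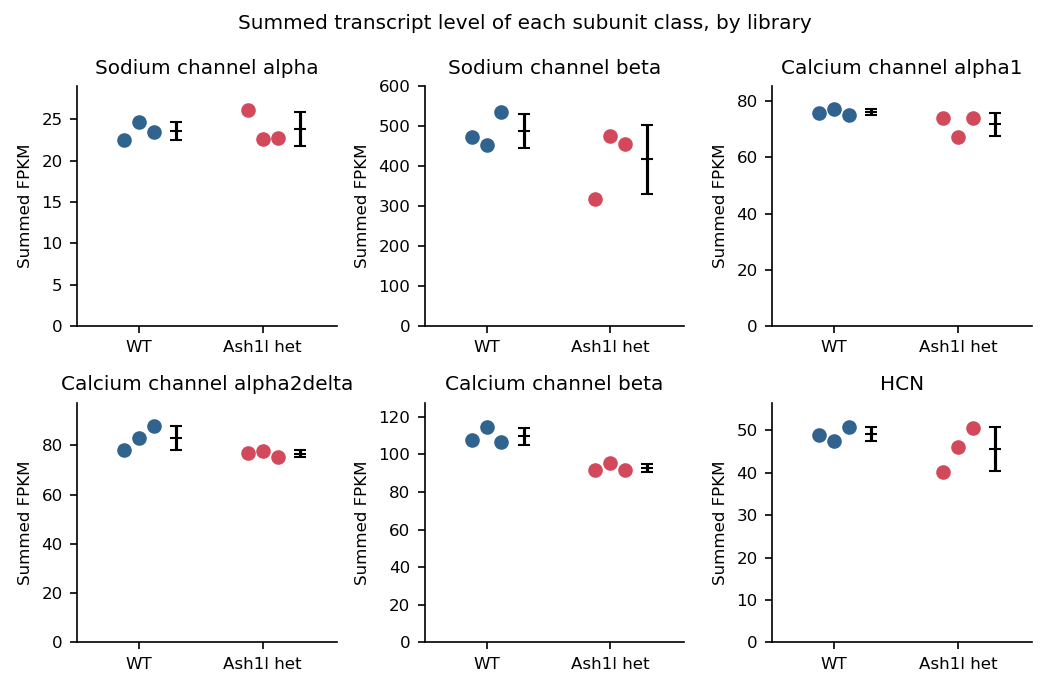
Summed FPKM of the members of each subunit class, one point per library, with the mean and SD of 3 libraries drawn in black beside the points. For calcium channel beta subunits the 3 Ash1l het libraries (91.5 to 95.2) lie below the 3 WT libraries (106 to 115), and for the sodium channel beta subunits one Ash1l het library (319) lies below the rest.

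The other summed levels differed less, apart from the sodium channel beta sum, whose groups overlapped in FPKM. The alpha1 sum was 75.9, 77.2 and 75.2 FPKM in WT and 73.9, 67.2 and 74.2 FPKM in Ash1l het, and the alpha2delta sum 78.05, 82.9 and 87.9 FPKM in WT and 76.7, 77.9 and 75.4 FPKM in Ash1l het. Both lay lower in each Ash1l het library, with differences of -0.086 and -0.11 on the log2 scale. Without Ash1l het replicate 2 the alpha1 difference was -0.040, and without WT replicate 3 that of alpha2delta was -0.069. On the TMM scale per kilobase the alpha1 groups overlapped. The sodium channel beta groups did not overlap on that scale, by a narrow margin, with a log2 difference of -0.29. The sodium channel alpha sum averaged 23.6 ± 1.09 FPKM in WT and 23.8 ± 2.03 FPKM in Ash1l het (SD, n = 3 each). The HCN sum averaged 49.2 ± 1.70 and 45.6 ± 5.17 FPKM, and the sodium channel beta sum 488 ± 42.3 and 417 ± 85.8 FPKM. Without Ash1l het replicate 1 the log2 differences of these last 2 sums went from -0.12 to -0.028 and from -0.25 to -0.063; without Ash1l het replicate 3 that of HCN was -0.19.

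The balance among subunits was compared as the share of each gene that held at least 10% of its class in WT. Of 15 such shares none can pass 0.05, since 0.1 is the smallest p of a two-sided exact permutation test of 3 against 3, and the smallest p adjusted over the 15 was 0.750. Scn3a held 35.1%, 35.5% and 34.9% of the alpha sum in WT and 33.03%, 32.2% and 33.2% in Ash1l het. Its groups did not overlap (exact p = 0.1), but with Scn2a1 in the sum the difference went from -2.33 to -0.802 percentage points and the exact p to 0.300. The share of Cacnb4 in the calcium channel beta sum was 22.2%, 20.8% and 19.8% in WT and 28.9%, 23.3% and 9.54% in Ash1l het.

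Large steps between single libraries were seen in several members. When the 6 libraries of a gene were put in order of CPM, 6 of the 31 members (19.4%) had a step of at least 1.5-fold between neighbours, beside 15.9% of all tested genes. They were Cacnb4 (2.30-fold), Scn2b (1.85-fold), Scn7a (1.83-fold), Scn3b (1.64-fold), Cacna2d1 (1.53-fold) and Scn4b (1.52-fold), named for these steps after their values were seen. The libraries below the step differed from gene to gene: Ash1l het replicate 3 for Cacnb4, all Ash1l het libraries with WT replicate 2 for Scn2b, WT replicate 3 for Scn7a, and Ash1l het replicate 1 for Scn4b. For none of the 6 could the step separate the genotypes, since in CPM the groups overlapped for every tested member. The median biological coefficient of variation was 0.165 over the members and 0.159 over all tested genes. It was 0.315 for Cacnb4, 0.312 for Scn3b and 0.336 for Cacna2d1. These 3 values come from the same counts as the steps and so are no separate evidence. Cacnb4 shares 1433 exonic bases with A430018G15Rik on the opposite strand, which had between 10 and 21 counts per library, against 2673 to 6749 for Cacnb4.

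**Figure D5:**
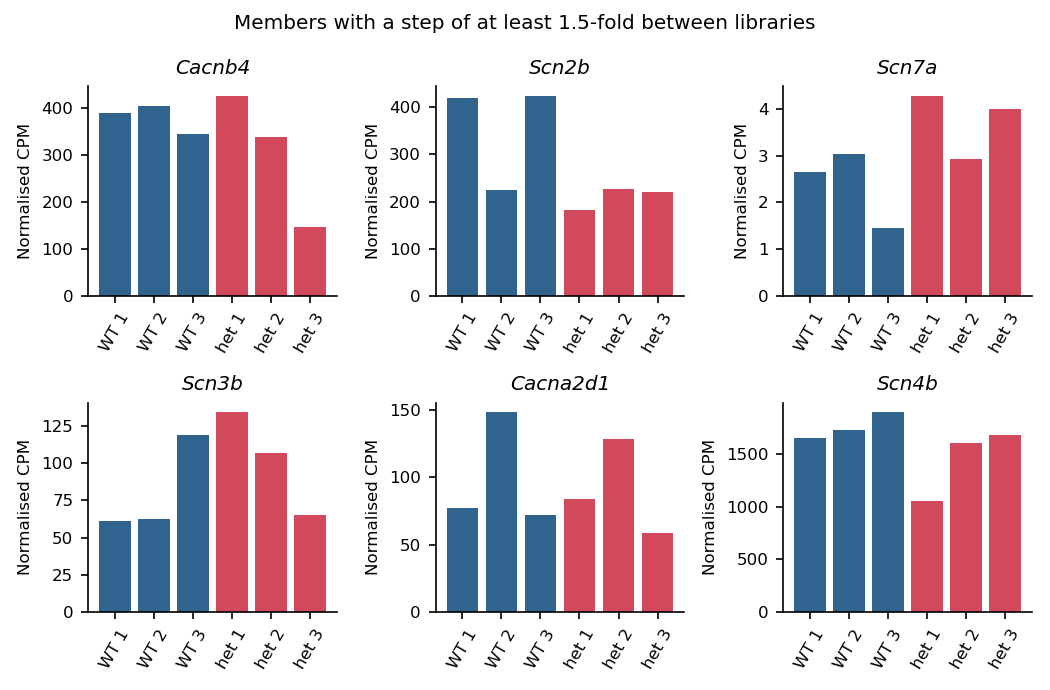
Normalised CPM in each library for the 6 members with a step of at least 1.5-fold between neighbouring libraries; blue bars are WT and red bars Ash1l het, and every axis starts at 0. The low bars fall in different libraries from gene to gene, as in Cacnb4 (147 CPM in Ash1l het replicate 3) and Scn2b (419 and 424 CPM in WT replicates 1 and 3 against 182 to 227 CPM in the other 4).

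Genes that act with these channels were also compared. Of 11 sodium channel partners, among them the ankyrin gene Ank3 and the fibroblast growth factor homologous factors, 11 were tested. Of these 9 were lower by sign, where 48.6% of all tested genes were lower. By the edgeR quasi-likelihood test 0 were called and 0 had an unadjusted p under 0.05, beside 0.0131% and 5.78% of all tested genes. The smallest p values were those of the ubiquitin ligase gene Nedd4l, with a log2 fold change of -0.26 (SE 0.17), Fgf11, with -0.19 (SE 0.14), and the spectrin gene Sptbn4, with -0.087 (SE 0.12). Of 18 calcium channel partners 15 were tested, 7 lower and 8 higher by sign, and the edgeR quasi-likelihood test called 0. Stac2, which encodes an adaptor that slows inactivation of L-type channels, was the one of these 15 with an unadjusted p under 0.05. Over all tested genes 5.78% had such a p, and 11.7% had groups that did not overlap in CPM. The count of 1 is thus no result about the partners. Stac2 stood at 17.5, 16.6 and 20.03 CPM in WT libraries and at 22.9, 22.3 and 26.5 CPM in Ash1l het libraries, higher in each Ash1l het library (log2 fold change 0.41, SE 0.13, edgeR adjusted p = 0.825). The calmodulin gene Calm3 had a value of -0.14 (SE 0.12).

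Of the 3 HCN partners 2 were tested and both overlapped between genotypes. Pex5l, which encodes an auxiliary subunit of neuronal HCN channels, differed by -0.023 (SE 0.15) on the log2 scale and Kctd3 by -0.047 (SE 0.11). Of 17 related cation channel genes 9 were tested, 5 lower and 4 higher by sign, and the edgeR quasi-likelihood test called 0, with 1 at an unadjusted p under 0.05. That gene, Tpcn1, which encodes an endolysosomal channel, stood at 50.01, 51.4 and 59.00 CPM in WT libraries and at 43.9, 41.1 and 46.2 CPM in Ash1l het libraries, lower in each Ash1l het library (log2 fold change -0.29, SE 0.11, edgeR adjusted p = 0.857). Over all tested genes, 5.78% had an unadjusted p under 0.05 and 11.7% had groups that did not overlap in CPM. Unc80 and Fam155a, which encode partners of the sodium leak channel, had values of 0.094 (SE 0.11) and -0.11 (SE 0.14).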

How the data were processed

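RNA from dorsal striatum, lysed in TRIzol, was made into libraries with the VAHTS Stranded mRNA-seq kit, as the labels' protocols state. The deposited table gives raw read counts and FPKM per gene; files of single samples repeat these counts (0 genes differ). CASAVA, FastQC, HISAT2, StringTie, edgeR and GRCm38 are named in the submitters' processing notes; their roles, versions and strand setting were not given in the sources used here. By the deposited values, FPKM is the authors' count over a fixed gene length and the library total: the implied length was a whole number, to within 0.1 base, for 99.1% of the 15172 genes averaging 10 counts or more.

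The test was the edgeR 4.0.16 quasi-likelihood test (R 4.3.3), robust and TMM-scaled, with the default filter (minimum count 10), genotype as the one term and Benjamini-Hochberg adjustment over all 15267 genes kept. SE and 95% intervals come from that fit. Alternatives were DESeq2 1.42.0, limma 3.58.1 (voom, and log2(FPKM + 0.1) and log2(FPKM + 1) at a mean of at least 0.5 FPKM), the exact test of edgeR, upper-quartile and RLE scaling, filters of none and of 1 CPM in 3 libraries, a threshold of 0.1, a replicate block and each library left out. In simulated counts for this comparison (15079 genes) the test recovered 12% of 50 genes changed 1.5-fold, 60% at 2-fold, 88% at 3-fold and 96% at 4-fold, and 9.86% of its calls were unchanged genes. The simulation held 50 changed genes at each fold and gave 142 calls, where the data gave 2. Recovery under this adjustment depends on how many genes change, so these shares may overstate that in the data.

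Values in every library are given by rule for the leading 2 members of each subunit class (3 sodium channel alpha and 4 alpha1 genes) and for members with an unadjusted p under 0.05. Those of Scn3b, Scn7a, Cacnb4, Cacna2d1 and Hcn3 were added after their values were seen. Up to 3 genes of each partner list were named by smallest p. Results for some genes are not reported here, and these genes are left out of the plots by gene. The members and lists were chosen with earlier results of these data known. Nothing in the labels ties each library to its own animal; p-values therefore measure only how these samples spread, which may be technical. In GENCODE vM21 (GRCm38), 25 of the 35 members have the same start and end as in the table, and 10 share exonic bases with a gene on the opposite strand (589 for Cacna1d with Chdh); since strand use is not given, the counts of these members are uncertain to that extent.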

Additional observations from a re-analysis of the deposited data

How the results depend on the processing

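No member was called in any of the alternatives run, and the members' median log2 fold change lay between -0.14 and -0.060. Over all genes, 2 were called, against 35 by DESeq2, 39 by the exact test of edgeR and 1 to 13 with each library left out (lowest without WT replicate 3, highest without Ash1l het replicate 3). Same-numbered libraries had correlations of deviations of 0.0684, -0.0772 and 0.00715, and those with different numbers ran from -0.140 to 0.138. These values show no pairing by replicate number, but with 3 libraries per group they cannot exclude it. With a replicate block 0 members and 3 genes in all were called, with a median member value of -0.092.

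The log2 fold changes of Scn2b (-1.01 to -0.62) and Cacnb1 (-0.58 to -0.28) kept their sign with each library left out, as did the calcium channel beta sum (-0.26 to -0.20). With 1 library left out the log2 fold change also moved by over 1.5 times, at the same sign, for Scn4b (-0.40 to -0.099), Scn3a (-0.20 to -0.045), Scn3b (0.081 to 0.71), Scn7a (0.39 to 0.89), Scn9a (0.083 to 0.41), Cacna1a (-0.48 to -0.19), Cacna1c (-0.19 to -0.029), Cacna1i (-0.38 to -0.16), Cacna2d3 (-0.21 to -0.088), Hcn2 (-0.26 to -0.060) and Hcn3 (-0.41 to -0.13). The sign of these members depended on 1 library: Cacnb4 (-0.64 to 0.0097), Cacna1e (-0.12 to 0.10), Cacna2d2 (-0.20 to 0.054), Scn8a (-0.12 to 0.10), Cacna1h (-0.25 to 0.12), Cacna1d (-0.16 to 0.053), Cacna1b (-0.051 to 0.19), Cacnb2 (-0.082 to 0.16), Cacna2d1 (-0.48 to 0.28), Scn1a (-0.11 to 0.29), Hcn4 (-0.077 to 0.23), Cacna1g (-0.36 to 0.13) and Cacna2d4 (-0.24 to 0.25). Cacna1e was also 0.0026 with upper-quartile scaling, 0.019 on log2(FPKM + 0.1) and 0.018 on log2(FPKM + 1), and Cacna1d 0.0056 and 0.0058 on the last 2 scales. The sodium channel alpha sum, 0.012 on the log2 scale, was -0.028 on the TMM scale, -0.026 with Scn2a1 and -0.058 to 0.047 with each library left out. Differences in share, in percentage points, changed sign with a library left out for Cacna1h (-0.902 to 1.67), Cacnb4 (-4.56 to 5.12), Hcn2 (-2.49 to 0.549), Scn8a (-3.03 to 1.95), Scn1a (-0.717 to 4.61), Scn4b (-2.04 to 0.413), Cacna2d3 (-3.22 to 1.45) and Cacna2d2 (-0.751 to 1.62). They also did so for Scn8a with Scn2a1 (0.230), and as shares of counts for Scn4b (0.493) and Cacna1h (-0.114). The cause was not tested. With 3 libraries per group, intervals of the members that do not lie within 1.5-fold leave room for a difference of that size.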
